A study of Mus musculus with 12 samples.

Results

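The dystrophin-glycoprotein complex was followed through 8 of its genes, Dmd, Utrn, Dag1, Sgca, Sgcb, Sgcd, Sgce and Sspn, of 27597 gene names measured on 12 one-colour mouse expression arrays. Members were taken by name: every non-control probe that carries the symbol of a member was used, which gave 21 probes on 30 spots. Of these, 19 probes entered the tests, because in at least 1 group every array showed them well above background. The series has 4 groups of 3 arrays. Soleus, a slow oxidative hind limb muscle, and extensor digitorum longus (EDL), a fast glycolytic one, were dissected from male CD1 mice aged 3 months, and each muscle sample joined the muscles of both legs of 1 mouse. C2C12 myotubes are the fused cells of a mouse muscle cell line 96 hours into differentiation, separated from most mononucleated cells by a short replating step. C2C12 myoblasts are the dividing precursors of the same line at about 50% confluence. Both cultures come from a single cell line, and separate growth of the 3 cultures in a group is not stated by the labels, so a p-value covers the spread between these samples, which may be technical.

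Dystrophin (Dmd) links the actin cytoskeleton of a muscle fibre to a group of membrane proteins that hold on to the basement membrane, and its loss causes Duchenne muscular dystrophy. Dystroglycan (Dag1) is the receptor for laminin and binds dystrophin inside the cell. The sarcoglycans and sarcospan form a subcomplex beside it that stabilises the link, and mutations of several sarcoglycans cause limb-girdle muscular dystrophies. Utrophin (Utrn) is the close relative of dystrophin, found along the membrane of developing and regenerating fibres and mainly at the neuromuscular and myotendinous junctions of adult ones.

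The sequences before the listed transcription starts are given for 3 members, dystrophin, alpha-sarcoglycan and utrophin. They are from RefSeq, build GRCm38.p6, read in the direction of the gene. A start was listed for 7 of the 8 members, 10 starts in all, and none was listed for Sgce. Capitals mark matches to the E-box (CANNTG, the same on both strands), the binding letters of myogenic basic helix-loop-helix factors, and to the CArG box and the MEF2 site, searched on both strands. Of 32851 windows of 250 bases before a listed start, 66.2% held an E-box, 1.47% a CArG box and 2.92% a MEF2 site. The first Dmd stretch lies at chrX:82948620-82948869 on the plus strand and held 2 E-boxes, 1 CArG box and 1 MEF2 site. The second, before a start farther along the same gene at chrX:85048045-85048294, plus strand, held none of the 3. The Sgca stretch, at chr11:94976328-94976577 on the minus strand, held 1 E-box. The Utrn stretch, at chr10:12861736-12861985 on the minus strand, held 7 E-boxes, 2 of them overlapping. A match describes these letters and does not show that a factor binds there.
Dmd, first listed start: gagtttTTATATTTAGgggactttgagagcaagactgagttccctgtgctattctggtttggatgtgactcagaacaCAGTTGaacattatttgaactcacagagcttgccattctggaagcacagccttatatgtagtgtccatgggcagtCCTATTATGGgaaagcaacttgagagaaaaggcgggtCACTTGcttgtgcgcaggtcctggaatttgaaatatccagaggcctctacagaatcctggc
Dmd, second listed start: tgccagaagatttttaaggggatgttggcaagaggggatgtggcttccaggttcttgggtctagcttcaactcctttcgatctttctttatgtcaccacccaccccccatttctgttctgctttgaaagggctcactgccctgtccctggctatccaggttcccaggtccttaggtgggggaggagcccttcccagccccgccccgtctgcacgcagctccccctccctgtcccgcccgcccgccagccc
Sgca: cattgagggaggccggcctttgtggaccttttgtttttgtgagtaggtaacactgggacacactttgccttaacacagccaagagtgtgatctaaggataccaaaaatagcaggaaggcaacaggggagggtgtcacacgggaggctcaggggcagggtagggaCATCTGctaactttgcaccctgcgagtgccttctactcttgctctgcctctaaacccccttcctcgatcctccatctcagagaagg
Utrn: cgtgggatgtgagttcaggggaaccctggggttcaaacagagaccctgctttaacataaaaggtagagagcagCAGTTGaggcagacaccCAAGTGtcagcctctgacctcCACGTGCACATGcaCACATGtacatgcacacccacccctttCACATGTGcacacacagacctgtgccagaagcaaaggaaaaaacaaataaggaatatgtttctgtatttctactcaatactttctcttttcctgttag

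Levels below are log2 signals scaled to the 75th percentile of each array, as mean ± SD over 3 arrays. A difference is called when its adjusted p is under 0.05 and its size at least 1 on the log2 scale. Levels of different probes are not comparable. On each array 57.4% to 72.9% of probes were well above background. The unscaled 75th percentile was 457.3 to 614.3 on soleus and 465.7 to 594.8 on EDL arrays, against 1018 to 1230 on myotube and 1048 to 1556 on myoblast arrays. Scaling to the spike-in control RNA instead moves every probe by -0.36 in myotubes minus myoblasts, by -0.95 in EDL minus myotubes, by -1.17 in soleus minus myotubes and by -0.23 in soleus minus EDL. Against myoblasts the shift is -1.30 in EDL and -1.53 in soleus. Muscle markers were above background on every array, with all 9 called higher in myotubes than in myoblasts, as were 3569 of all 18870 genes.

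Whole muscle also held other cells. All 12 endothelial, all 9 fibroblast and all 7 Schwann cell markers were called higher in EDL and in soleus than in myotubes, as were 7 and 8 of 9 macrophage markers. For smooth muscle and pericyte markers it was 8 of 9 in EDL and 9 of 9 in soleus. Of all 18870 genes, 5252 were called higher in EDL and 4874 in soleus. On all 3 myotube arrays only 4 endothelial, 4 fibroblast, 5 Schwann cell, 5 macrophage and 6 smooth muscle markers were well above background. The rest entered the fit through other groups, so these counts are a description. The summed endothelial signal was 77010 to 80460 in soleus and 66660 to 75690 in EDL, against 597.8 to 895.5 in myotubes and 1202 to 1391 in myoblasts, and Pecam1, Cdh5, Tie1 and Emcn were not well above background in either culture. Summed fibroblast signal was 119900 to 127300 in soleus and 160600 to 192000 in EDL, against 9106 to 11660 in myotubes and 33300 to 44190 in myoblasts. Summed Schwann cell signal was 11730 to 12120 in soleus and 5657 to 6084 in EDL, and summed smooth muscle signal was 273100 to 289900 in soleus and 318700 to 360200 in EDL. The part of these cells in the muscle values below was not tested, and in bulk samples fewer cells of a type and less RNA per cell cannot be told apart. Markers of dividing cells were high in myoblasts, with a summed signal of 1092 to 1298 in myotubes against 56670 to 65400 in myoblasts.

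Dystrophin appeared with differentiation. Its probe A_52_P81210, printed 10 times per array at chrX:81456898-81456957 (plus strand, array design build mm8), stood at 11.25, 11.05 and 11.33 in the 3 soleus samples, at 11.28, 11.31 and 11.26 in EDL, at 9.40, 9.65 and 9.82 in myotubes, and at 1.14, 0.97 and 0.77 in myoblasts, where no array showed it well above background. The myoblast arrays lay far below all others, and both muscles lay above every myotube array. The spots of this probe varied within an array by an SD of 0.016 to 0.225 on the log2 scale, widest in a myoblast array. Myotubes were at least 99.5-fold higher than myoblasts, EDL at least 314-fold and soleus at least 299-fold. Each fold is a lower bound for the scaling used here, taken against the dimmest signal well above background on each myoblast array. These limits were 3.24, 2.99 and 2.73. A probe can exceed such a limit without being well above background, but the myoblast values of A_52_P81210 all lay below it. Spike-in scaling moves the log2 differences from myoblasts by -0.36 in myotubes, -1.30 in EDL and -1.53 in soleus, which lowers these folds. The differences as measured, 8.66 for myotubes (adjusted p = 1.4e-11 in the limma fit), 10.32 for EDL and 10.25 for soleus, rest on myoblast values below background and give no size.

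By the other Dmd probes too, every muscle array lay above every myotube array and these above every myoblast array. A_52_P306697, closer to the start of the gene, stood at 8.42 ± 0.08 in soleus, 8.05 ± 0.29 in EDL, 6.86 ± 0.12 in myotubes and 0.73 ± 0.25 in myoblasts. A_52_P29655 stood at 6.58 ± 0.31, 6.38 ± 0.18, 5.55 ± 0.10 and 0.83 ± 0.18 in these groups. A_52_P644572, designed on a cDNA and placed well upstream at chrX:79982946-79983005, stood at 5.77 ± 0.36 in soleus, 5.25 ± 0.19 in EDL, 4.22 ± 0.63 in myotubes (above background on 2 of 3 arrays) and 0.96 ± 0.14 in myoblasts. None of the 4 Dmd probes was well above background on a myoblast array. Against myoblasts, myotubes were at least 14.7-fold, 5.90-fold and 2.35-fold higher by these 3 probes, with the same scaling and limits. The 2.35-fold of A_52_P644572 rests on a myotube mean that includes the array where it was not above background. With normexp background correction myotubes minus myoblasts was 2.28 for A_52_P81210, 0.29 for A_52_P306697, -0.48 for A_52_P29655 and -0.96 for A_52_P644572, none of them called. Once the background of a few spots was capped, A_52_P81210 stood at 4.18 and was called, and A_52_P644572 stood at 0.59 and was not. Which forms of the transcript gave the signal was not measured, since the gene also makes short forms from internal promoters.

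In muscle, dystrophin signal relative to the 75th percentile was higher than in myotubes. By A_52_P81210 the difference was 1.66 in EDL (SE 0.13, adjusted p = 1.1e-06) and 1.59 in soleus (SE 0.13, adjusted p = 1.7e-06). By A_52_P306697 it was 1.19 in EDL and 1.56 in soleus, and by A_52_P644572 1.03 and 1.56. A_52_P644572 entered the fit only through the muscles, so its differences are a description. A_52_P29655 differed by 1.04 in soleus and by 0.84 in EDL, where it was not called. With spike-in scaling none of these differences was called, A_52_P81210 standing at 0.71 in EDL and 0.41 in soleus, and A_52_P29655 turned to -0.11 in EDL and -0.14 in soleus. With quantile normalization A_52_P306697 (0.99) and A_52_P644572 (0.42) in EDL, and A_52_P29655 (0.57) and A_52_P644572 (0.996) in soleus, were not called. With normexp none of the 4 probes was called in either muscle, A_52_P81210 standing at 1.51 in EDL and 1.21 in soleus. Calls also ended without EDL replicate 1 (0.94) or myotube replicate 3 (0.67) for A_52_P644572 in EDL and soleus replicate 1 (0.95), soleus replicate 2 (0.95) or myotube replicate 3 (0.98) for A_52_P29655 in soleus. Soleus and EDL overlapped for all 4 probes, and none was called. The difference of A_52_P81210 was -0.07, with a 95% interval of -0.37 to 0.22. That of A_52_P306697 was 0.37, with an interval of 0.012 to 0.74 (adjusted p = 0.12).

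**Figure D1:**
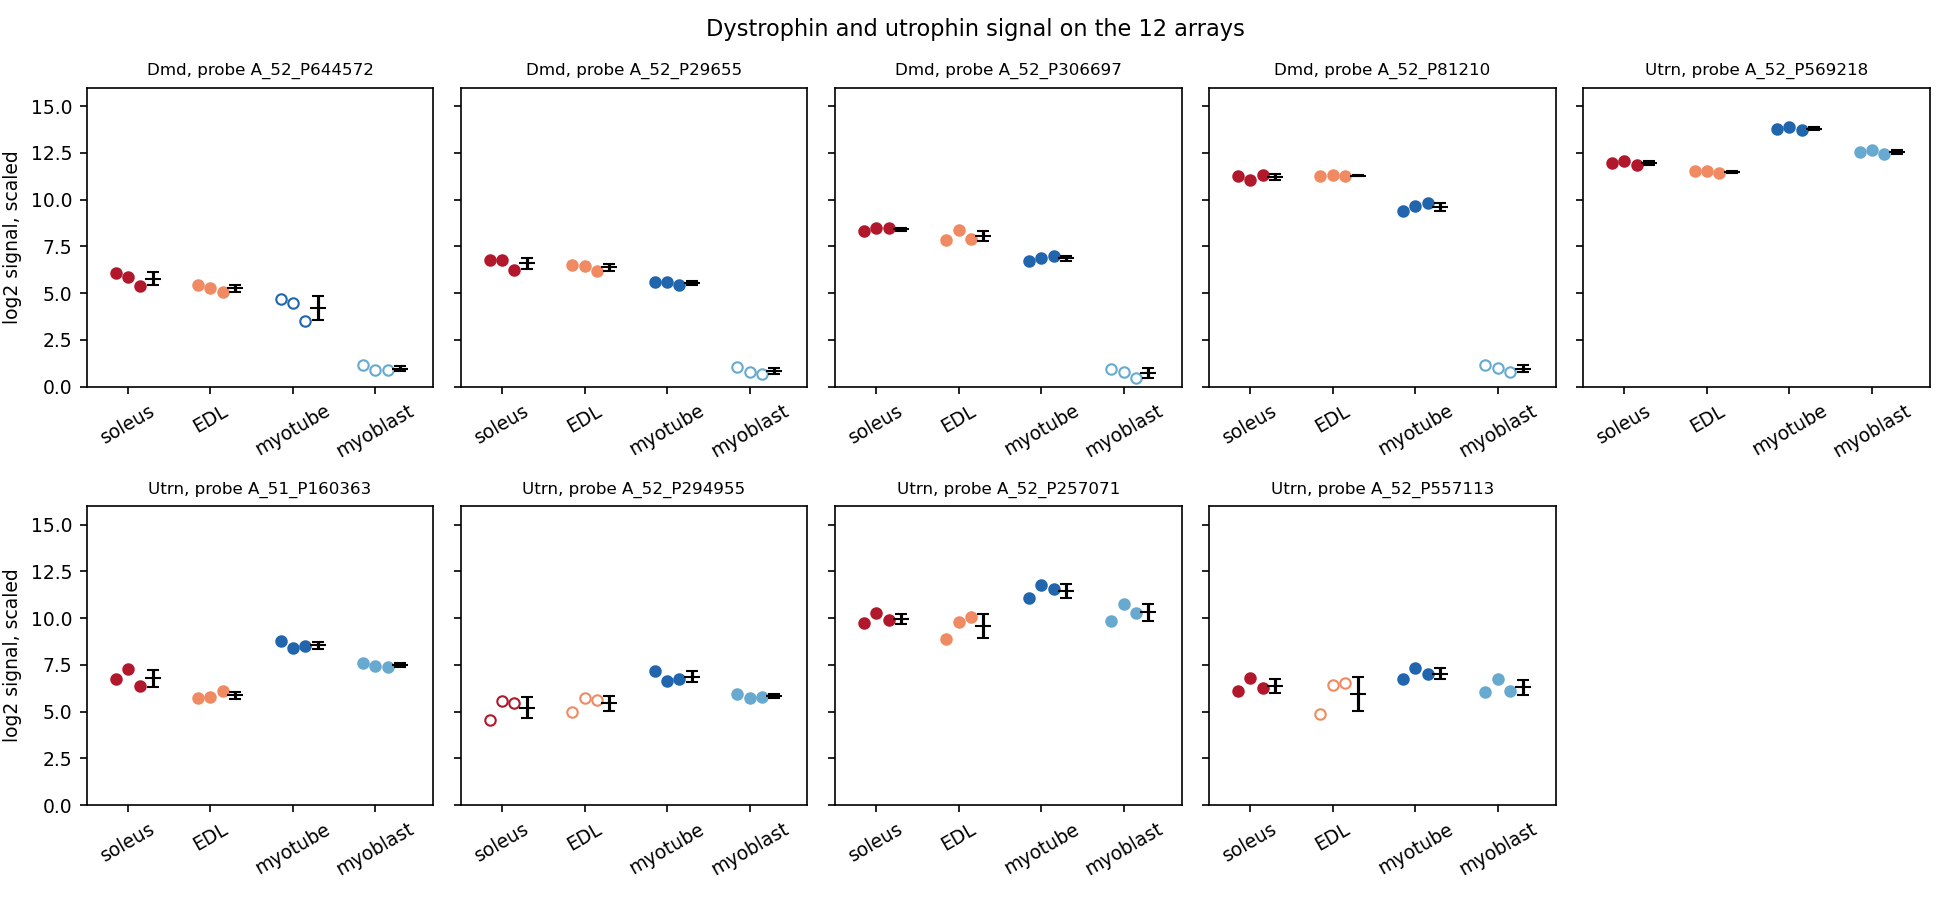
Scaled log2 signal of 4 Dmd and 5 Utrn probes (vertical axis) on the 3 arrays of soleus, EDL, myotubes and myoblasts (horizontal axis). Each point is 1 array, open where the probe was not well above background on all 3 arrays of the group, and bars beside the points are mean ± SD. Dmd probes are near the bottom in myoblasts, and Utrn A_52_P569218 peaks in myotubes at 13.80.

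Utrophin had another order, with myotubes on top. Probe A_52_P569218, at chr10:12072552-12072611 on the minus strand in build mm8, stood at 11.95, 12.05 and 11.86 in soleus, 11.53, 11.51 and 11.42 in EDL, 13.80, 13.89 and 13.71 in myotubes, and 12.54, 12.65 and 12.45 in myoblasts. No 2 groups overlapped. Myotubes exceeded myoblasts by 1.25 (SE 0.09, adjusted p = 6.9e-07). EDL differed from myotubes by -2.31 (SE 0.09, adjusted p = 4.2e-09), and soleus differed from myotubes by -1.84 (SE 0.09, adjusted p = 2.4e-08). EDL also fell below myoblasts (-1.06, adjusted p = 1.2e-06), while soleus differed from them by -0.59 and was not called. With spike-in scaling the soleus difference was -2.12 and called, and with normexp the EDL difference was -0.91 and not called.

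Of the 5 Utrn probes tested, 4 were called higher in myotubes than in myoblasts, 5 lower in EDL than in myotubes and 4 lower in soleus than in myotubes. A_51_P160363 had the widest drop in EDL, at 6.78 ± 0.46 in soleus, 5.86 ± 0.19 in EDL, 8.55 ± 0.18 in myotubes and 7.49 ± 0.10 in myoblasts, a difference of -2.69 in EDL minus myotubes. A_52_P257071 stood at 9.97 ± 0.28 in soleus, 9.59 ± 0.64 in EDL, 11.46 ± 0.35 in myotubes and 10.30 ± 0.46 in myoblasts. A_52_P294955 stood at 5.20 ± 0.56, 5.45 ± 0.41, 6.85 ± 0.29 and 5.83 ± 0.12 in these groups. It was above background on 2 of 3 soleus and 2 of 3 EDL arrays. Since it entered the fit only through the cultures, where it was higher, its falls in muscle are a description. A_52_P557113 stood at 6.38 ± 0.38, 5.94 ± 0.93, 7.02 ± 0.29 and 6.30 ± 0.40, and its myotube minus myoblast difference of 0.72 was not called (adjusted p = 0.16). In EDL it was above background on 2 of 3 arrays, so it entered the fit only through groups where it was higher than there. The sixth probe, A_52_P504624, was not well above background in any group and was not tested. With spike-in scaling the 4 probes called higher in myotubes than in myoblasts stood at 0.89, 0.71, 0.80 and 0.67 and none was called. Single arrays ended calls too: without myotube replicate 1 A_51_P160363 stood at 0.96 and A_52_P294955 at 0.86, without myoblast replicate 1 A_52_P257071 at 0.94, and without myoblast replicate 2 A_52_P294955 at 0.98. The falls in muscle were larger with spike-in scaling, at -3.26 in EDL and -3.02 in soleus for A_52_P569218. With normexp 3 of the 5 falls in EDL were not called, A_51_P160363 (-1.41), A_52_P294955 (-0.30) and A_52_P557113 (-0.30), and in soleus A_51_P160363 (-0.52) was not called and A_52_P294955 turned to 0.41. With the background capped A_52_P294955 stood at -0.29 in EDL and -0.33 in soleus and A_52_P557113 at -0.24 in EDL, not called. The fall of A_52_P557113 in EDL was not called without EDL replicate 1 (-0.55), myotube replicate 2 (-0.94) or myotube replicate 3 (-1.08), nor with only the groups compared in the fit (-1.08).

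Between the muscles, utrophin signal was higher in soleus by less than the threshold of size. A_52_P569218 differed by 0.47 (SE 0.09, adjusted p = 0.0029) and A_51_P160363 by 0.92 (SE 0.21, adjusted p = 0.0076), and the soleus and EDL arrays did not overlap for either. A_51_P160363 passed the threshold without soleus replicate 3 (1.14), without EDL replicate 3 (1.03), without replicate 3 of every group (1.25), with quantile normalization (1.01) and with the authors' deposited values (1.03). Spike-in scaling gave 0.24 for A_52_P569218 and 0.69 for A_51_P160363 (adjusted p = 0.85 and 0.49 in the limma fit). Normexp gave 0.20 and 0.88 for them (adjusted p = 0.66 and 0.62 in the limma fit). The other 3 Utrn probes overlapped between the muscles, with differences of -0.25, 0.38 and 0.44.

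Dystroglycan, made as 1 precursor that is cut into an outer and a membrane-spanning part, was also highest in myotubes. Dag1 probe A_51_P148675 stood at 12.52, 12.32 and 12.33 in soleus, 11.88, 12.07 and 12.11 in EDL, 13.19, 12.85 and 12.70 in myotubes, and 10.90, 10.77 and 10.75 in myoblasts. A_52_P419118 stood at 9.77 ± 0.07 in soleus, 9.54 ± 0.07 in EDL, 10.52 ± 0.37 in myotubes and 8.39 ± 0.14 in myoblasts. By both probes the myotube arrays lay above all others and the myoblast arrays below. Myotubes minus myoblasts was 2.11 (SE 0.13, adjusted p = 2.4e-07) and 2.14 (SE 0.16, adjusted p = 1.1e-06). EDL minus myotubes was -0.90 and -0.99, and soleus minus myotubes -0.52 and -0.76, all with adjusted p under the threshold and none large enough to be called. With spike-in scaling all 4 were called, at -1.84, -1.94, -1.70 and -1.93. In EDL A_52_P419118 was also called without EDL replicate 2 (-1.01), EDL replicate 3 (-1.01), myotube replicate 2 (-1.04) or myotube replicate 3 (-1.14), and A_51_P148675 without myotube replicate 3 (-1.002). Both muscles exceeded myoblasts, by 1.21 and 1.15 in EDL and by 1.58 and 1.38 in soleus, but with spike-in scaling the EDL differences turned to -0.09 and -0.16 and 1 of the soleus ones to -0.15. With normexp A_52_P419118 stood at 0.63 in EDL and 0.78 in soleus against myoblasts and was not called.

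Alpha-sarcoglycan (Sgca), the sarcoglycan restricted to striated muscle, rose most among the sarcoglycan members. Its probe A_51_P335491, at chr11:94779420-94779479 on the minus strand in build mm8, stood at 14.35, 14.47 and 14.54 in soleus, 14.53, 14.64 and 14.77 in EDL, 13.87, 14.15 and 14.11 in myotubes, and 9.90, 10.06 and 10.07 in myoblasts. Unlike Dmd, it was well above background on every myoblast array. Myotubes were 16.4-fold above myoblasts (4.03, SE 0.11, adjusted p = 4.2e-10), EDL 24.9-fold and soleus 21.7-fold. With spike-in scaling the log2 differences from myoblasts were 3.68 in myotubes and 3.34 in EDL, and the soleus one moves by -1.53. EDL minus myotubes was 0.61 and soleus minus myotubes 0.41, not called, and these turned to -0.34 and -0.76 with spike-in scaling.

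Beta-sarcoglycan (Sgcb), a core subunit of the sarcoglycan complex, rose less. Probe A_52_P501697 stood at 13.25, 13.12 and 13.21 in soleus, 13.33, 13.20 and 13.26 in EDL, 14.32, 14.39 and 14.29 in myotubes, and 12.40, 12.43 and 12.34 in myoblasts. A_51_P433960 stood at 12.72 ± 0.10 in soleus, 12.89 ± 0.14 in EDL, 13.17 ± 0.05 in myotubes and 11.26 ± 0.03 in myoblasts. Myotubes minus myoblasts was 1.94 (SE 0.07, adjusted p = 6.5e-09) and 1.91 (SE 0.09, adjusted p = 3.2e-08). The 2 probes disagreed in size for muscle: A_52_P501697 was called lower than in myotubes (-1.07 in EDL, -1.14 in soleus), and A_51_P433960 differed by -0.28 and -0.45. With spike-in scaling A_51_P433960 was called too, at -1.23 and -1.63, and with median scaling A_52_P501697 in EDL stood at -0.99 and was not. The third probe, A_52_P144871, designed on a cDNA, was dim, with 4.61 ± 0.37 in soleus, 4.95 ± 0.06 in EDL, 4.47 ± 0.18 in myotubes and 2.76 ± 0.67 in myoblasts, where it was above background on 1 array. It entered the fit only through the myotube arrays, so its difference from myoblasts is given as a value, at 1.71, with 1.35 under spike-in scaling, 0.43 with capped normexp and -0.99 with normexp.

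Delta-sarcoglycan (Sgcd), the partner of beta-sarcoglycan in the core, was called in neither muscle against myotubes nor in myotubes against myoblasts. Probe A_51_P389004 stood at 9.09, 9.15 and 9.03 in soleus, 9.05, 9.20 and 9.07 in EDL, 8.58, 8.63 and 8.66 in myotubes, and 7.72, 7.77 and 8.06 in myoblasts. The muscles overlapped, the myotubes lay below them and the myoblasts lower still. Myotubes minus myoblasts was 0.77 (SE 0.10, adjusted p = 6.5e-05), under the threshold of size. EDL and soleus were called higher than myoblasts, by 1.25 and 1.24, but with spike-in scaling these differences were -0.05 and -0.29, and with normexp 0.51 and 0.68, not called. The other Sgcd probe, A_52_P623117, was not well above background in any group.

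Epsilon-sarcoglycan (Sgce), a broadly expressed relative of alpha-sarcoglycan encoded by an imprinted gene, went the other way. Probe A_51_P311137, at chr6:4624457-4624516 on the minus strand in build mm8, stood at 11.44, 11.37 and 11.44 in soleus, 11.71, 11.64 and 11.72 in EDL, 10.81, 11.19 and 11.22 in myotubes, and 13.28, 13.31 and 13.26 in myoblasts. A_52_P27864 stood at 8.23 ± 0.06 in soleus, 8.51 ± 0.09 in EDL, 8.19 ± 0.17 in myotubes and 10.44 ± 0.09 in myoblasts. Every myoblast array lay above every other array for both probes. Myotubes differed from myoblasts by -2.21 (SE 0.11, adjusted p = 3.2e-08) and -2.26 (SE 0.10, adjusted p = 2.1e-08), EDL by -1.59 and -1.93, and soleus by -1.87 and -2.22. The muscles differed from myotubes by 0.04 to 0.62, none called, and all 4 of these differences were below 0 with spike-in scaling. Of them A_52_P27864 in soleus was called lower under that scaling, at -1.14. Soleus minus EDL was -0.28 for each probe (adjusted p = 0.079 and 0.063), with no overlap of the arrays.

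Sarcospan (Sspn), the tetraspan-like protein that binds the sarcoglycans, was graded, with soleus above EDL, EDL above myotubes and these above myoblasts. Probe A_51_P401659 stood at 14.20, 14.26 and 14.32 in soleus, 13.69, 13.76 and 13.89 in EDL, 13.12, 13.39 and 13.36 in myotubes, and 11.48, 11.73 and 11.80 in myoblasts. No 2 groups overlapped. Myotubes minus myoblasts was 1.61 (SE 0.11, adjusted p = 5.1e-07), EDL minus myoblasts 2.11 and soleus minus myoblasts 2.59. With spike-in scaling they were 1.26, 0.80 and 1.06, the EDL one not called. Soleus minus myotubes was 0.97, just short of the threshold of size, and passed it with median scaling (1.05) and without soleus replicate 1 (1.01), myotube replicate 2 (1.02) or myotube replicate 3 (1.01). EDL minus myotubes was 0.49. With spike-in scaling soleus stood at -0.20 and EDL at -0.45 against myotubes. Soleus exceeded EDL by 0.48 (SE 0.11, adjusted p = 0.0085). Spike-in scaling gave 0.25 there (adjusted p = 0.86 in the limma fit) and normexp 0.13 (adjusted p = 0.82).

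**Figure D2:**
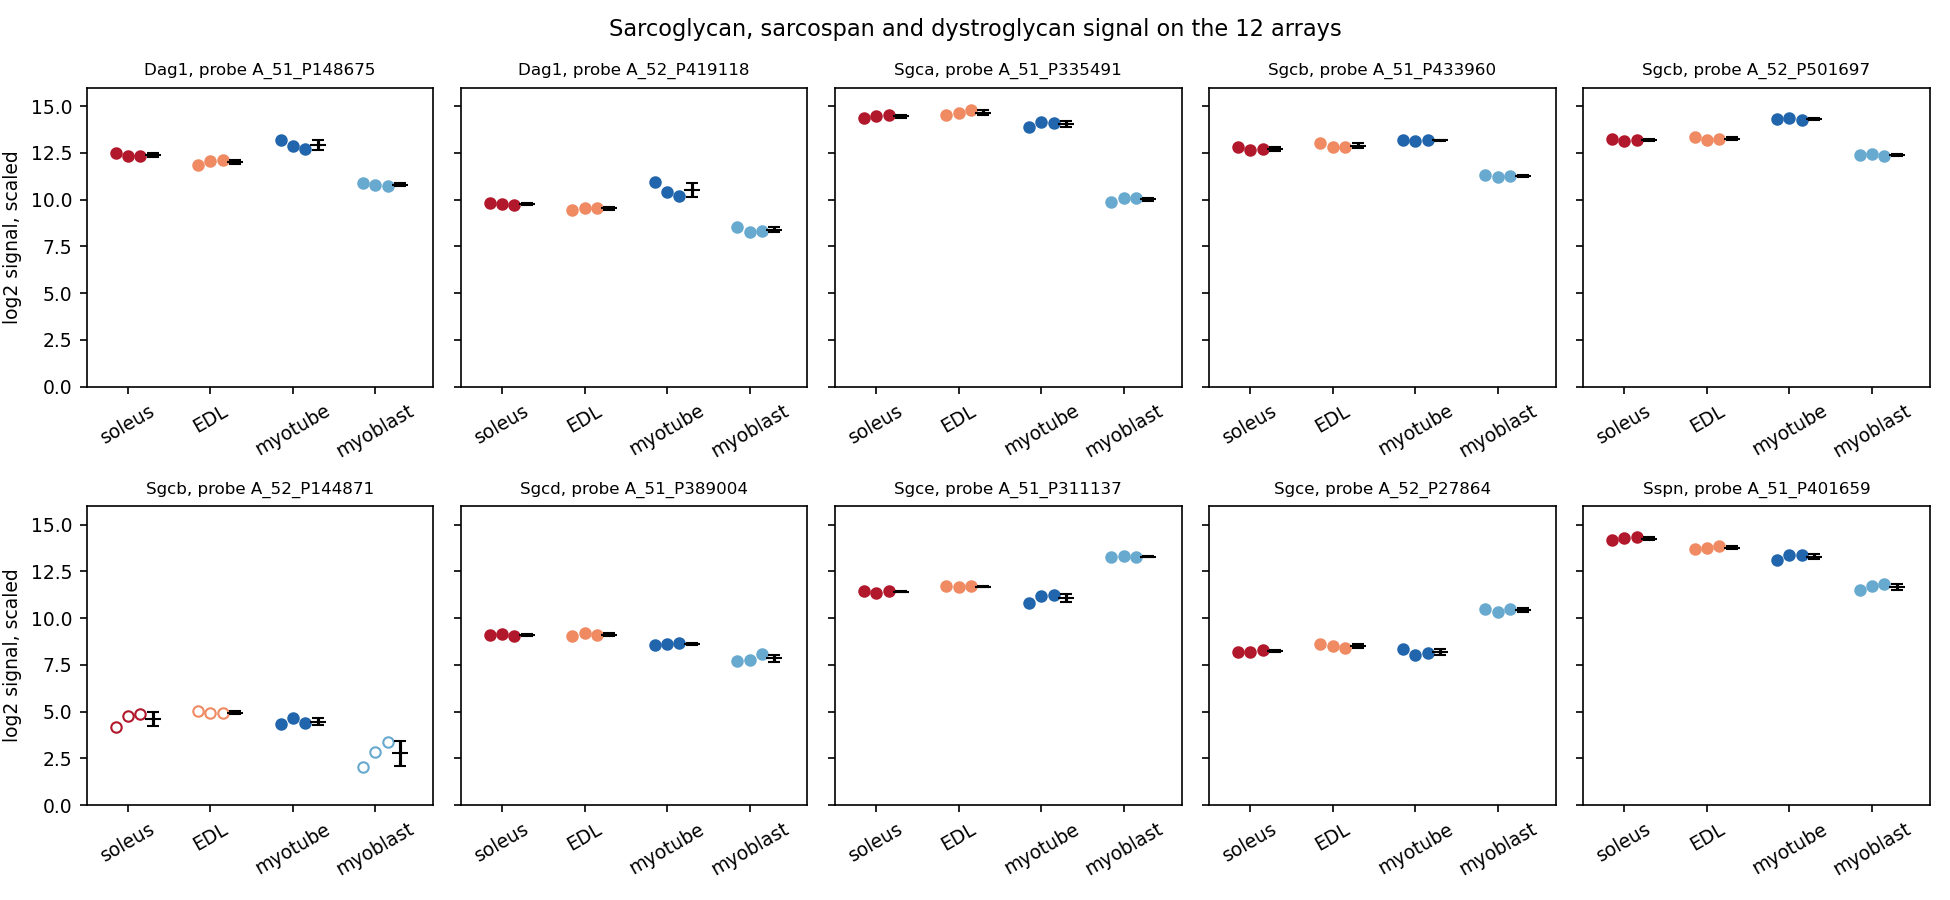
Scaled log2 signal of the Dag1, Sgca, Sgcb, Sgcd, Sgce and Sspn probes (vertical axis) on the 3 arrays of soleus, EDL, myotubes and myoblasts (horizontal axis), with points open where a probe was not well above background on all 3 arrays of the group and mean ± SD beside them. Both Sgce probes are highest in myoblasts, at 13.28 and 10.44, and Sgca is lowest there, at 10.01.

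Of the 19 probes, 17 were called between myotubes and myoblasts, 15 higher and 2 lower, where 35.2% of all probes tested were called (18.4% higher and 16.8% lower). The 2 lower ones were those of Sgce. The 4 Dmd probes and Sgcb A_52_P144871 passed the filter only through groups where they were higher than in myoblasts, so the counts and the median are a description. The median difference was 1.71, against 0.023 over all probes tested. The arrays of the 2 groups did not overlap for 18 of 19 probes, where the share over all probes was 68.5%. With spike-in scaling 10 probes were called higher and 2 lower, where 3367 of all 28617 probes were called higher and 6107 lower. By 1 probe a gene, 7 of 8 members were called, 6 higher and 1 lower, and the member not called was Sgcd.

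Between muscle and myotubes the calls went both ways with 75th percentile scaling. In EDL 9 of 19 probes were called, 3 higher and 6 lower, where the share over all probes was 46.4% (26.0% higher and 20.4% lower). In soleus 9 of 19 were called, 4 higher and 5 lower, where the share was 44.3% (24.3% higher and 20% lower, 5732 of 28618 probes). These counts are near the shares over all probes. The arrays did not overlap for 19 probes in EDL and 16 in soleus, where the shares over all probes were 74.5% and 73.3%. The probes called higher were all Dmd, and those called lower were Utrn and 1 Sgcb probe. Dmd A_52_P644572 entered the fit only through the muscles, where it was higher than in myotubes. Utrn A_52_P294955 entered only through the cultures, and A_52_P557113 was above background on 2 of 3 EDL arrays. These counts are therefore a description. With spike-in scaling 9 probes in EDL and 10 in soleus were called, all lower. Under that scaling 11957 of all 28618 probes were called lower and 3644 higher in EDL. In soleus these were 14142 and 3151. Against myoblasts, 15 of 19 were called in EDL, 11 higher and 4 lower, where the share over all probes was 56.8% (31.0% higher and 25.8% lower). In soleus 13 were called, 11 higher and 2 lower, where the share was 55.0% (29.3% higher and 25.7% lower). Among the 11 higher ones in each muscle were the 4 Dmd probes and Sgcb A_52_P144871. They passed the filter only through groups where they were higher than in myoblasts, so these counts are a description. The arrays did not overlap for 16 and 17 probes, where the shares were 79.9% and 79.1%. With spike-in scaling the split was 5 higher and 7 lower in EDL, and 6 higher and 7 lower in soleus. Over all 28617 probes the split in EDL was 4249 higher and 14485 lower under that scaling. It moves every probe by -1.30 in EDL and by -1.53 in soleus.

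No probe of the complex was called between soleus and EDL by limma, where 9.44% of all probes were. At an unadjusted p under 0.05 there were 7, and 3 had an adjusted p under 0.05, the 2 Utrn probes and the Sspn probe described above. With the slide as a block these counts were 10 and 6, and still none was called. The further 3 were Sgca (-0.20, adjusted p = 0.024), Sgce A_52_P27864 (-0.28, adjusted p = 0.021) and Dag1 A_51_P148675 (0.37, adjusted p = 0.041). The shares of all probes at these p thresholds are not given, so the counts with and without the block are a description. Without the block, the lowest adjusted p of the 19 probes in the limma fit was 0.49 with spike-in scaling and 0.40 with normexp. Within slides 15 of 19 probes had 1 sign on all 3. No share over all probes is given for this count either, and array position went with the group, so it is a description. The arrays of the 2 muscles did not overlap for 8 of 19 probes, where the share over all probes was 43.1%. Differences reached at most 0.92 in size, and their 95% intervals together ran from -1.003 to 1.39. The comparisons that share a group are not independent of each other.

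**Figure D3:**
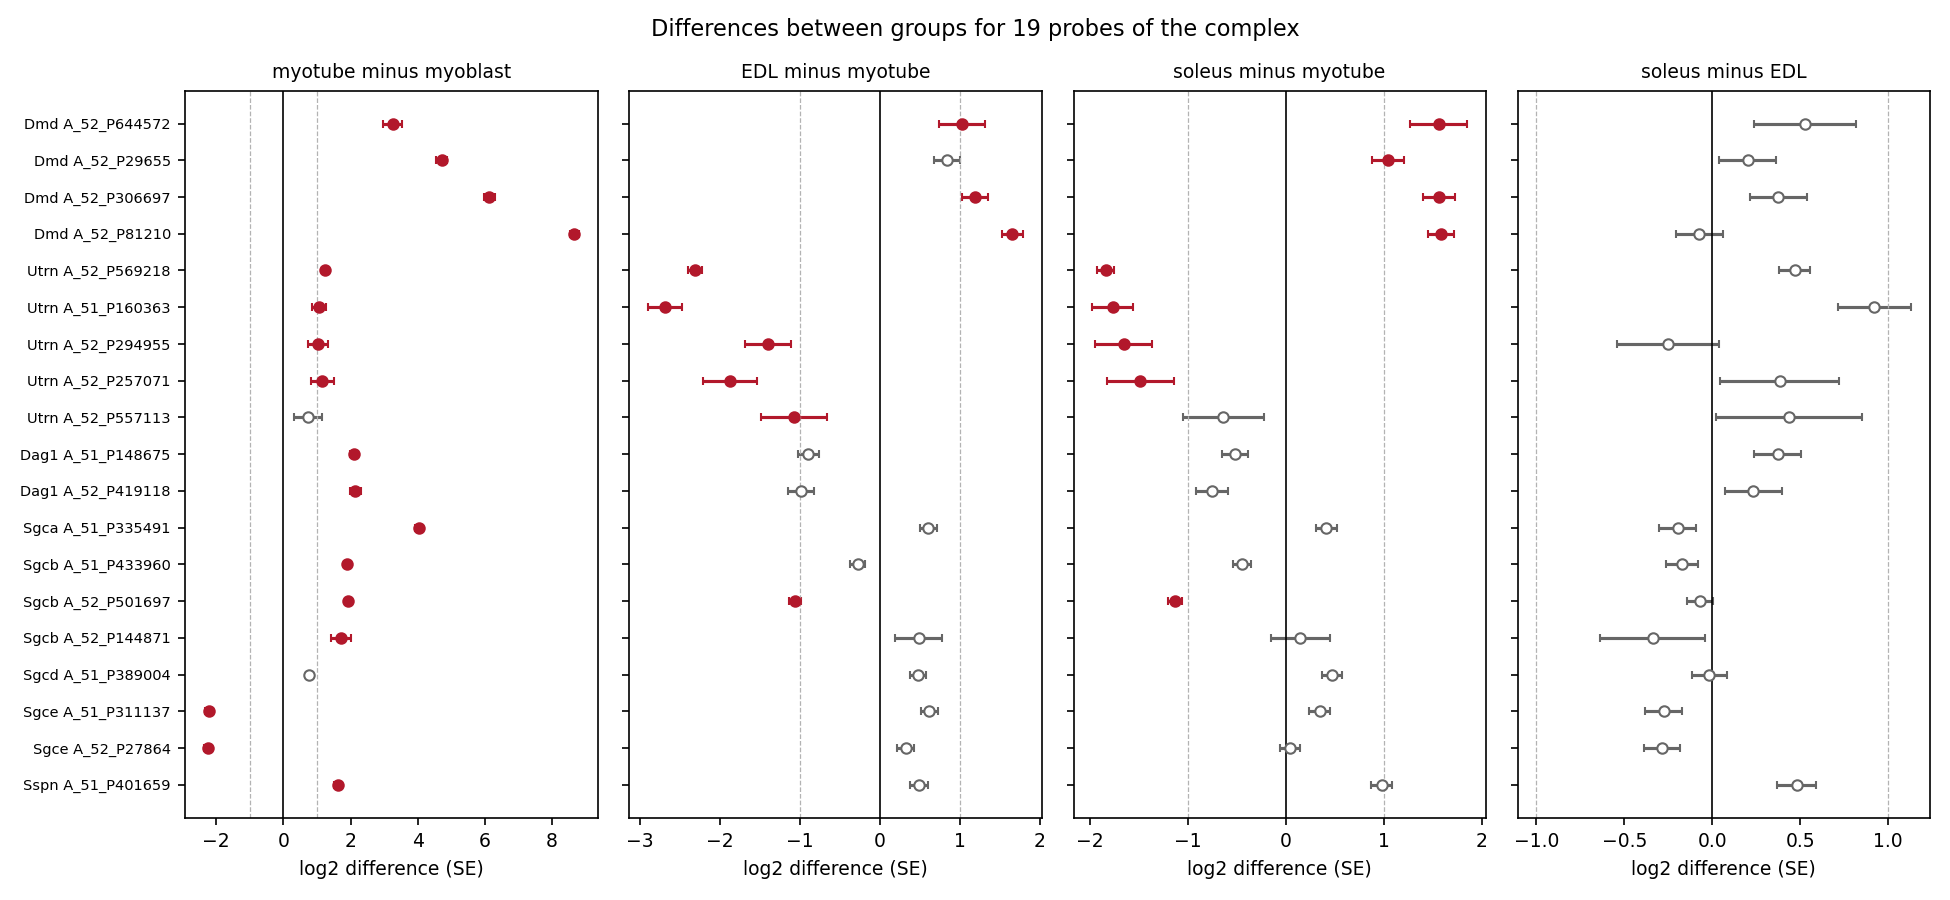
Log2 difference with its SE (horizontal axis) of the 19 probes (vertical axis) in myotubes minus myoblasts, EDL minus myotubes, soleus minus myotubes and soleus minus EDL, on separate scales. Filled red points are called differences, open grey points are not, and dashed lines mark differences of 1 in either direction. In EDL minus myotubes 3 Dmd probes are called above 0, and 5 Utrn probes and 1 Sgcb probe below 0.

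**Figure D4:**
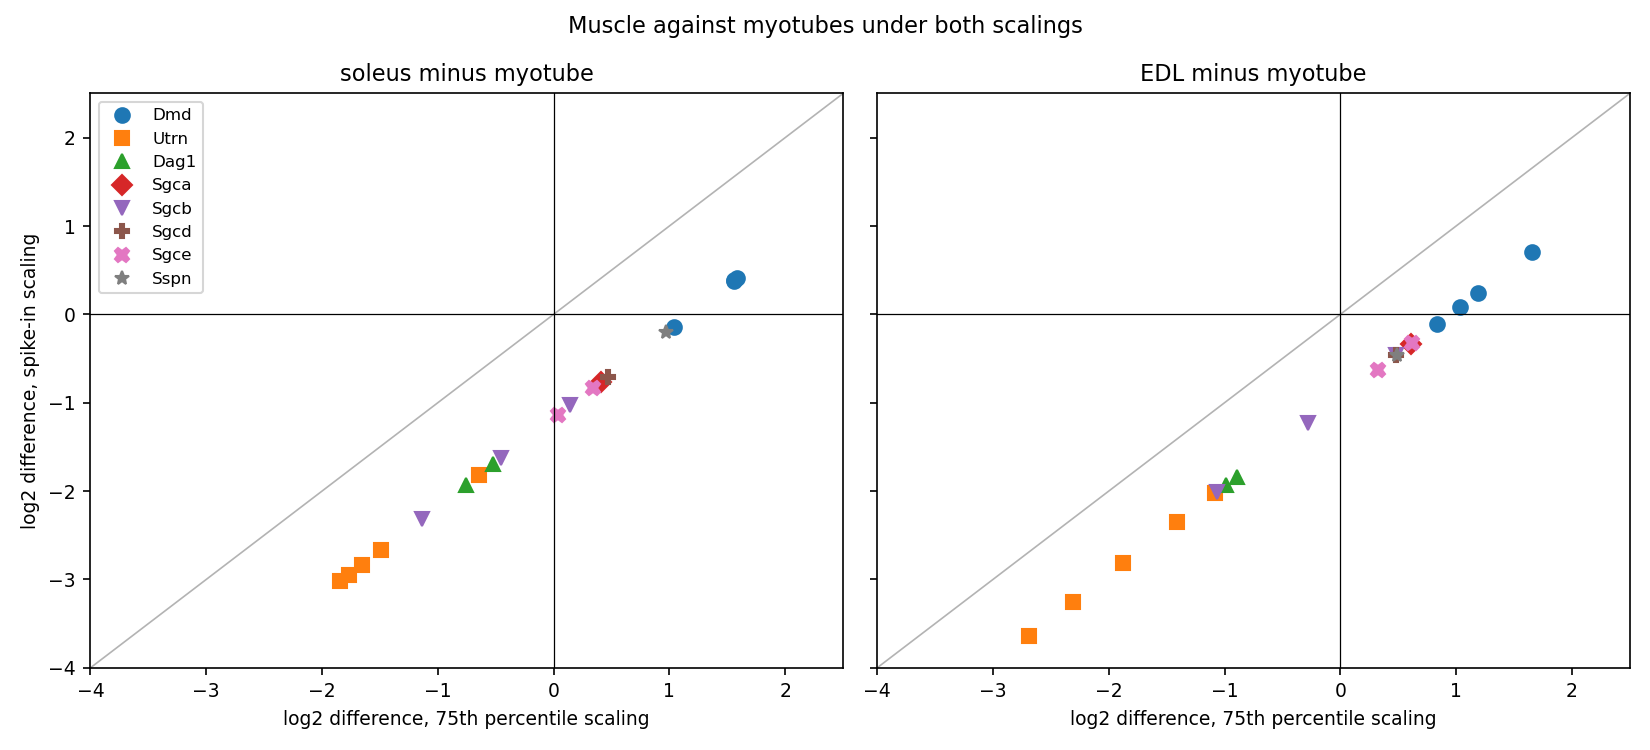
Log2 difference of each probe in soleus minus myotubes and EDL minus myotubes with spike-in scaling (vertical axis) against 75th percentile scaling (horizontal axis), 1 symbol per probe and 1 shape per gene, with the line of equal values in grey. All points lie below the line by 1.17 in soleus and 0.95 in EDL, since this scaling adds 1 constant per comparison. No probe is above 0.71 on the vertical axis.

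The complex holds further proteins in the membrane and on its inner side. Of 11 such partners 8 were tested, and 5 were called higher and 1 lower in myotubes than in myoblasts, where 35.4% of all genes were called. Caveolin-3 (Cav3), the muscle caveolin, differed by 8.41 (SE 0.13) and neuronal nitric oxide synthase (Nos1), which docks on the complex through syntrophin, by 2.77 (SE 0.20). Beta-dystrobrevin (Dtnb), the form of dystrobrevin found mainly outside muscle, differed by -2.22 (SE 0.23). With normexp Nos1 (0.53), Drp2 (0.71) and Sntb1 (-0.49) were not called there. In EDL 3 partners were called higher and 3 lower than in myotubes, where 47.7% of all genes were called. Nos1 stood at 13.87 ± 0.06 in EDL against 7.87 ± 0.22 in myotubes (5.99, SE 0.20). Alpha-dystrobrevin (Dtna) differed by 2.15, dystrophin-related protein 2 (Drp2), which is prominent in Schwann cells, by -3.48, and beta-2-syntrophin (Sntb2) by -1.15. In soleus 3 were higher and 2 lower than in myotubes, where 45.3% of all genes were called. They included Nos1 (4.10), Dtna (1.71), Drp2 (-2.29) and beta-1-syntrophin (Sntb1, -1.54). With spike-in scaling the split was 2 higher and 4 lower in EDL and 1 higher and 4 lower in soleus, Dtna standing at 0.53 in soleus. Over all 28618 probes that scaling gave 3644 higher and 11957 lower in EDL, and 3151 and 14142 in soleus. With normexp the split of the partners was 3 and 2 in EDL and 4 and 0 in soleus. There Sntb1 turned to 0.58 and Drp2 stood at -0.81, and with the background capped Sntb1 was -0.065. Between soleus and EDL, where 9.75% of all genes were called, Nos1 was lower in soleus, at 11.97 ± 0.18 against 13.87 ± 0.06 in EDL (-1.90, SE 0.20, adjusted p = 6.1e-05), and Drp2 was higher (1.19, SE 0.26, adjusted p = 0.0056). With spike-in scaling Nos1 (-2.13) was called between the muscles and Drp2 (0.97) was not. With normexp neither was called, at -2.11 and 1.04, and with the background capped Drp2 stood at 0.56. Partners not tested, because in no group did every array show a probe above background, were Sgcz, Sntg1 and Sntg2.

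Dystroglycan binds laminin through sugar chains that a set of enzymes builds. All 17 glycosylation genes on the list were tested, and 3 were called higher and none lower in myotubes than in myoblasts, where 35.4% of all genes were called. Pomgnt2, which extends the O-mannose core, differed by 1.66 and Dpm1, a subunit of the enzyme that makes the mannose donor, by 1.53. EDL minus myotubes gave 2 higher, B3galnt2 (1.81) and Pomgnt2 (1.26), both glycosyltransferases of the core, where 47.7% of all genes were called. Soleus minus myotubes gave 2 lower, the O-mannose kinase Pomk (-1.28) and the glucuronyltransferase B4gat1 (-1.01), where 45.3% of all genes were called. B4gat1 was not called with median scaling (-0.93), quantile normalization (-0.97) or the authors' deposited values (-0.94), nor Pomk with normexp (-0.86), and the count was 1 without soleus replicate 1, myotube replicate 2 or myotube replicate 3. With spike-in scaling, 5 genes in EDL and 10 in soleus were called against myotubes, all lower. Of all 28618 probes, 11957 in EDL and 14142 in soleus were called lower under that scaling. Soleus minus EDL gave 3 lower and none higher, among them B3galnt2 (-1.48) and Pomk (-1.31), where 9.75% of all genes were called. With spike-in scaling 1 was called, lower, and Pomk (-1.53) was not. Pomk was not called with normexp either (-0.82).

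Of 6 extracellular ligands 4 were tested. Laminin alpha 2 (Lama2), the main laminin chain of the muscle basement membrane, was called higher in myotubes than in myoblasts (1.30, SE 0.10) and was not called with spike-in scaling. Pikachurin (Egflam), a ligand known from the retina, stood at 10.46 ± 0.05 in soleus and 11.37 ± 0.07 in EDL, against 4.14 ± 0.31 in myotubes, where it was above background on 2 of 3 arrays, a difference of 6.32 and 7.23. Egflam therefore entered the fit through groups other than the myotubes, so these differences are a description. Laminin alpha 5 (Lama5) was lower in muscle than in myotubes, by -1.33 in EDL and -1.92 in soleus, and agrin (Agrn) was higher in soleus (1.03). Spike-in scaling turned Agrn to -0.14, and it missed the threshold with normexp (0.61) and with the background capped (0.96). None was called between soleus and EDL.

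**Figure D5:**
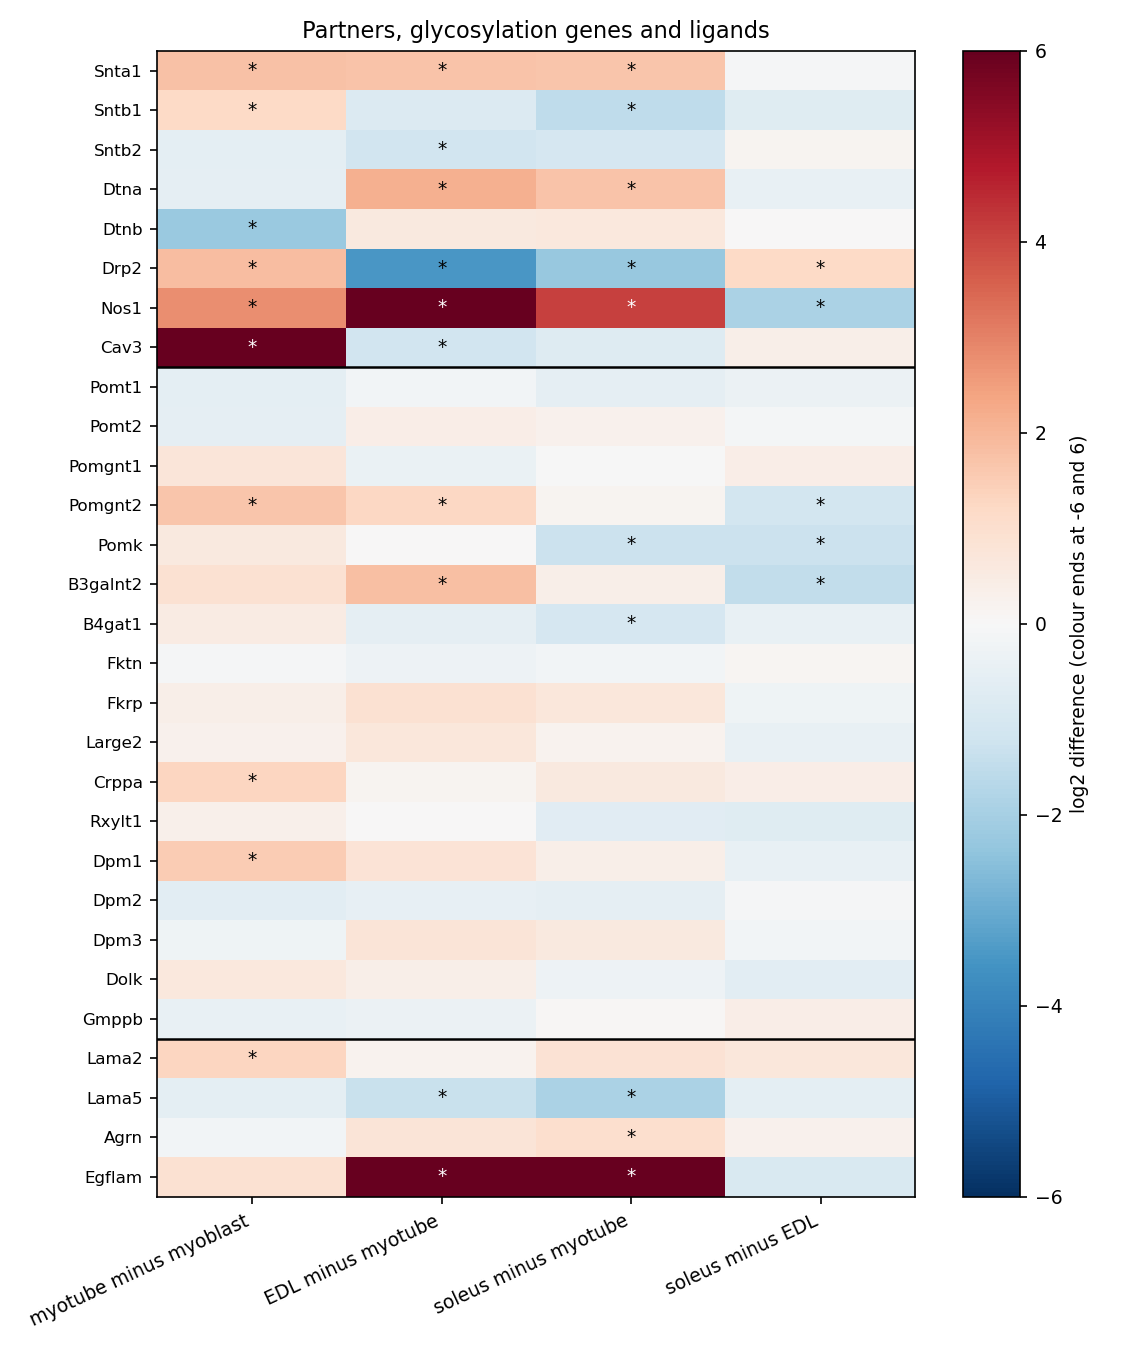
Log2 differences (colour, ending at -6 and 6) of 29 genes, one per row in 3 blocks (partners, glycosylation genes, ligands from top to bottom), in 4 comparisons (columns); asterisks mark called differences. Cav3 at 8.41 in myotubes minus myoblasts and Egflam at 7.23 in EDL minus myotubes exceed the colour scale, as does Egflam in soleus minus myotubes.

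Genes with a pattern most like that of a member were ranked by the root mean square difference over the 12 arrays after each probe's own mean was removed, among 15135 genes. None is given for Dmd, whose myoblast values were below background. Nearest to Utrn A_52_P569218 were Rab6b (0.12), Cerk (0.12) and Amn1 (0.12). Nearest to Dag1 A_51_P148675 were Wipi1 (0.15), Tnfrsf25 (0.17) and Hoga1 (0.18). Nearest to Sgca were Abca8b (0.17), the myosin light chain Myl1 (0.25) and Inpp5d (0.25). The genes share the arrays and their scaling, and the ranking says nothing of shared function.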

How the data were processed

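The deposited scanner files hold intensity values per spot, background-subtracted and detrended within the array by Agilent Feature Extraction 10.5.1.1, per the file headers, with deposited flags of another kind (0 or 1) for spots above background, saturated or outlying. A deposited table of the authors' processed intensity values, whose normalization between arrays is not stated, was an alternative only. Of 43379 non-control spots per array, 68 to 140 outliers were left out and spots of a probe averaged (41174 probes); no spot was saturated. Signals were taken to log2, the array's 75th percentile subtracted and a constant of 9.648 added. The 28618 probes well above background on all 3 arrays of a group were fitted with limma 3.58.1 in R 4.3.3 (lmFit, eBayes, 4 group means, all 12 arrays, two-sided), with Benjamini-Hochberg adjustment over all of them. The 6 comparisons had 8 residual and 1.85 prior degrees of freedom. The fit was tested on simulated data. The number of arrays limits the precision.

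Each slide held 1 array of every group, and the replicate number is the slide; array position went with the group, so the 2 cannot be told apart, and slide 1 was scanned apart from the others. Deviations from group means correlated at 0.211 to 0.62 between arrays of 1 number (18 pairs) and at -0.446 to 0.175 otherwise (36 pairs), so the numbers pair the samples. Every member probe is named; other lists give up to 2 highest and 2 lowest called genes per main comparison, a gene being its brightest kept probe. Some genes of the lists are not reported here and are left out of the counts. Members and lists were chosen with earlier results of these data known. Alternatives were spike-in scaling, quantile normalization, normexp background correction, the authors' values, no filter, a replicate block, fitting only the groups compared and leaving out arrays; median scaling and normexp with capped background were chosen after seeing the data. No gene models of build mm8 were used, so exons are not given.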

Additional observations from a re-analysis of the deposited data

How the results depend on the processing

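Within each of the 3 slides the 63 called differences of the complex had the sign of the fit, which their size of at least 1 over these same slides made likely. With the replicate block all 114 member differences stayed on their side of the threshold, and the counts of called probes were 17 in myotubes minus myoblasts, 9 in EDL minus myotubes, 9 in soleus minus myotubes, 0 in soleus minus EDL, 15 in EDL minus myoblasts and 13 in soleus minus myoblasts, as without it. Without a filter on dim probes none of the 19 probes changed its call, and of the 2 probes added 1 was called against myoblasts, which gave 16 in EDL and 14 in soleus. Leaving out arrays gave 15 to 17, 7 to 10, 8 to 10, 0 to 1, 15 to 15 and 13 to 13 called probes of the complex in these comparisons, and 9506 to 10041, 12539 to 13544, 12121 to 12987, 2239 to 2697, 15540 to 16467 and 15140 to 15998 over all probes. Of 1026 member differences with arrays left out, 15 changed sign, 24 lost and 15 gained a call. Median scaling ended 2 calls and made 1.

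Spike-in scaling turned 24 member differences. In EDL minus myotubes they were Dmd A_52_P29655 (-0.11), Sgca (-0.34), Sgcb A_52_P144871 (-0.46), Sgcd (-0.46), Sgce (-0.33 and -0.63) and Sspn (-0.45). In soleus minus myotubes they were Dmd A_52_P29655 (-0.14), Sgca (-0.76), Sgcb A_52_P144871 (-1.03), Sgcd (-0.71), Sgce (-0.83 and -1.14) and Sspn (-0.20). In EDL minus myoblasts Dag1 stood at -0.093 and -0.16, Sgcb A_52_P501697 at -0.43 and Sgcd at -0.049. In soleus minus myoblasts Dag1 A_52_P419118 stood at -0.15, Sgcb at -0.077 and -0.73, Sgcd at -0.29 and Utrn A_52_P557113 at -1.45. In soleus minus EDL Dmd A_52_P29655 stood at -0.027, and 1231 of all probes were called against 2702.

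Normexp background correction called 10, 3, 3, 7 and 7 probes of the complex in the comparisons other than soleus minus EDL, where it called 0, and 4401, 6412, 6178, 8115 and 6673 of all probes, with 511 in soleus minus EDL. It raised the 10th percentile of signal to 1246 on myoblast array 2 and 924.8 on soleus array 1, against 62.5 on EDL array 3. Under it, myotubes minus myoblasts turned for Dmd A_52_P29655 (-0.48) and A_52_P644572 (-0.96), Sgcb A_52_P144871 (-0.99), and Utrn A_52_P294955 (-0.44) and A_52_P557113 (-0.33). In soleus minus myotubes Sgca stood at -0.080, Sgce A_51_P311137 at -0.028, and Utrn at 0.41 and 0.44. In soleus minus EDL Sgcb A_52_P144871 stood at 0.73, Sgcd at 0.17, Sgce A_52_P27864 at 0.11 and Utrn A_52_P294955 at 0.71, and in EDL minus myoblasts Sgcb A_52_P144871 at -0.37 and Dmd A_52_P644572 at -0.25. Dmd A_52_P81210 in myotubes minus myoblasts was 2.28 and not called. With the background capped it was 4.18 and called, 1419 of all probes were called in soleus minus EDL, Sgcd stood at 0.051 there, Utrn at 0.38 and 0.28 in EDL minus myoblasts, and Utrn A_52_P294955 at 0.35 in soleus minus myoblasts.

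Quantile normalization and the authors' values each called 1 Utrn probe in soleus minus EDL, as did leaving out soleus replicate 3, EDL replicate 3 or replicate 3 of every group. Under them Sgcb A_52_P144871 stood at -0.18 and -0.18 in EDL minus myotubes and at -0.46 and -0.45 in soleus minus myotubes, Sgce A_52_P27864 at -0.068 and -0.086 there, and Utrn A_52_P557113 at -0.50 and -0.52 in soleus minus myoblasts. With arrays left out, 8 differences that were not called changed sign. In soleus minus myotubes Sgcb A_52_P144871 ranged from -0.037 to 0.36 and Sgce A_52_P27864 from -0.037 to 0.14. In soleus minus EDL the ranges were -0.049 to 0.028 for Sgcd, -0.49 to 0.073 for Utrn A_52_P294955, -0.095 to 0.80 for Utrn A_52_P557113 and -0.15 to 0.024 for Dmd A_52_P81210. Utrn A_52_P557113 ranged from -0.77 to 0.18 in EDL minus myoblasts and from -0.13 to 0.31 in soleus minus myoblasts. The cause was not tested for the changes under spike-in scaling, quantile normalization and the authors' values. Signal over background limits the Dmd values in myoblasts and the dim cDNA probes.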

Other observations

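A further probe, listed under S42506 and described on the array as a partial dystrophin mRNA, was not among the members because it does not carry the symbol Dmd. It lies at chrX:79067639-79067698 in build mm8 and was well above background on 1 myoblast array and on no other of the 12. Its level was 2.17 ± 0.48 in soleus, 2.18 ± 0.51 in EDL, 1.34 ± 0.29 in myotubes and 1.64 ± 1.49 in myoblasts.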
